A study of Mus musculus with 12 samples.

Results

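The 55 genes described here encode proteins of the cytosolic ribosome, 32 of the large subunit and 23 of the small subunit, out of 21887 protein-coding genes on the mouse autosomes, X and Y. They were taken as a named list, chosen with earlier results of these data known. A gene counted as having a peak where a MYC or MAX ChIP-seq peak overlapped its mm10 extent or the 1 kb on either side. The peaks came from RAW264.7, a monocyte-derived mouse cell line that forms osteoclasts, the bone-resorbing cells, when given the cytokine RANKL. Cells were treated for 4 h with RANKL (50 ng/ml) and the BET bromodomain inhibitor I-BET (500 nM) together, with I-BET alone or with RANKL alone, or were left untreated. Each antibody had 1 peak list for each treatment, so no difference between treatments could be set against replicates or tested. The labels give bone marrow as the source. A ChIP peak list holds no expression values against which the cell type could be checked.

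A ribosome contains each of its proteins in about equal number, and their genes are transcribed at high rates in growing cells. MYC is a transcription factor known for its ties to ribosome production, and it binds E-box DNA as a pair with MAX. MAX also pairs with itself and with the MXD, MNT and MGA proteins, so a MAX peak does not show which partner was there. BET proteins bind acetylated histones through their bromodomains, which I-BET compounds occupy. Messenger RNAs of ribosomal proteins typically start with a C followed by a run of pyrimidines, the 5' TOP element through which their translation is controlled.

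The promoters of 6 members on which the results turn are printed first, each from 250 bases before to 50 bases after a RefSeq start site (GRCm38.p6, the assembly of mm10), 5' to 3' on the gene's strand. Capitals mark the E-box CACGTG and the variants CATGTG and CACGCG on either strand. Rps12 is shown for its MAX peak, which ranked above those of all other members in the untreated, RANKL and combined lists. Rpl10a is shown for MYC peaks in 3 lists, and Rpl5 for a MYC peak in 2 lists without any of these hexamers in the window. Rpl13a, Rpl23 and Rps19 are shown for a CACGTG together with a MYC peak. Rps19 has 3 listed starts, and CACGTG occurred only in the printed window, that of the start at 24884913.
Rps12 (chr10:23787160-23787459, minus strand): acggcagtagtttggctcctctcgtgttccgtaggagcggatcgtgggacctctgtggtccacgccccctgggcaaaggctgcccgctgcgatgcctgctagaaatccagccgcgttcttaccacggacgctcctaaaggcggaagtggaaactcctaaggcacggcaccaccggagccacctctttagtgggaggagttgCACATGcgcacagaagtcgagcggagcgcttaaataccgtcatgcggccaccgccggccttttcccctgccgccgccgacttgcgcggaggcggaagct
Rpl10a (chr17:28328221-28328520, plus strand): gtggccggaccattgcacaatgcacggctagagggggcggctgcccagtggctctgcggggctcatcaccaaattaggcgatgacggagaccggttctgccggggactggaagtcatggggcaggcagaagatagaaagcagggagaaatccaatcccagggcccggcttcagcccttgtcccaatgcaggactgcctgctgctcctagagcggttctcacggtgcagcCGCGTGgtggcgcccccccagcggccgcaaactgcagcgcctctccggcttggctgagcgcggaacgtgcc
Rpl5 (chr5:107900278-107900577, plus strand): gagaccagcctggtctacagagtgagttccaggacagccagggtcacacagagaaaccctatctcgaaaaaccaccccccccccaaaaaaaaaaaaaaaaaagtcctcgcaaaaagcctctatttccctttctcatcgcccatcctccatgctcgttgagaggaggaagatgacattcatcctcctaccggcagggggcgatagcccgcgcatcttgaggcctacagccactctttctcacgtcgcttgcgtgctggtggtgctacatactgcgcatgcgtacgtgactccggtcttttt
Rpl13a (chr7:45128696-45128995, minus strand): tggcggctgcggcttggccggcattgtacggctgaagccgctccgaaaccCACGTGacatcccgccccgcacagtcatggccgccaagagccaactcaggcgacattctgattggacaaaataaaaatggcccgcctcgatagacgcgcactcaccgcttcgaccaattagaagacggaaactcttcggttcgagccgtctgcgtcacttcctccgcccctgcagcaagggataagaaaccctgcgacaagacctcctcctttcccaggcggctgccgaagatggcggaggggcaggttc
Rpl23 (chr11:97782390-97782689, minus strand): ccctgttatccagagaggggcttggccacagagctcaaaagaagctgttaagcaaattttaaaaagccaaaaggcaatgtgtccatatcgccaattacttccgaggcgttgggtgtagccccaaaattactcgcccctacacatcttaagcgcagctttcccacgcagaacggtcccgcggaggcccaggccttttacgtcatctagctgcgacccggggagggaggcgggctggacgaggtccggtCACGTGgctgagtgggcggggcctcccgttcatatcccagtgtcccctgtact
Rps19 (chr7:24884663-24884962, plus strand): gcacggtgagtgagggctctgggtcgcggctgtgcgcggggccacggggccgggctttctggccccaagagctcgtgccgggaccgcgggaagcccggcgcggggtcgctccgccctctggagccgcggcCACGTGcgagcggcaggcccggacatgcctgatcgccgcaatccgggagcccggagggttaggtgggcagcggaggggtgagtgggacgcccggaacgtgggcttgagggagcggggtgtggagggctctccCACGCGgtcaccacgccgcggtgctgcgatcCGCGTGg

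MAX peaks lay at most of these genes in every treatment. A MAX peak was listed at 44 of 55 members with RANKL and I-BET (80%, exact Clopper-Pearson 95% interval 67 to 89.6), at 55 of 55 with I-BET (93.5 to 100), at 52 with RANKL (94.5%, 84.9 to 98.9) and at 52 in untreated cells (94.5%, 84.9 to 98.9). Over all protein-coding genes the shares were 23.5% with RANKL and I-BET, 58.7% with I-BET, 34.5% with RANKL and 29.8% in untreated cells. The members' share thus stood above that of all genes in each of the 4 MAX lists. These intervals cover counting error over genes only, and the lists differ in length, with 6307, 36785, 10889 and 8839 peaks in the same order. Read depth is unknown.

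Genes of both subunits took part. With RANKL and I-BET, 27 of 32 large-subunit and 17 of 23 small-subunit genes had a MAX peak. With I-BET it was every gene of each subunit, and in the RANKL list and the untreated list alike it was 31 large-subunit and 21 small-subunit genes. In all, 43 members had a MAX peak in all 4 lists, 7 in 3 lists and 5 in 2 lists. The member list does not hold every cytosolic ribosomal protein gene, and the 32 protein-coding genes outside it had MAX peaks at lower counts, at 19, 29, 27 and 24 of 32 in the same order of treatments. For all 87 genes together the counts were 63 with RANKL and I-BET, 84 with I-BET, 79 with RANKL and 76 in untreated cells, still above the shares of all genes.

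MYC peaks were few, and most lay at large-subunit genes. No member had one with RANKL and I-BET (0 of 55, exact interval 0 to 6.49%, or up to 5.45% when limited with 3 counts). With I-BET 1 had one (1.82%, exact interval 0.046 to 9.72), with RANKL 9 (16.4%, 7.77 to 28.8) and in untreated cells 10 (18.2%, 9.08 to 30.9). The shares over all protein-coding genes were 0.0366% with RANKL and I-BET, 0.292% with I-BET, 1.35% with RANKL and 1.42% in untreated cells. The MYC lists held 11, 136, 299 and 312 peaks in that order, so with RANKL and I-BET very few genes of any kind could carry one. Of the genes with a MYC peak, 7 of 9 with RANKL and 9 of 10 in untreated cells encode large-subunit proteins. Absence from a MYC list does not show absence of the protein. In the upper 50% of each MYC list by score, members with a peak numbered 0 with I-BET, 4 with RANKL and 3 in untreated cells.

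**Figure D1:**
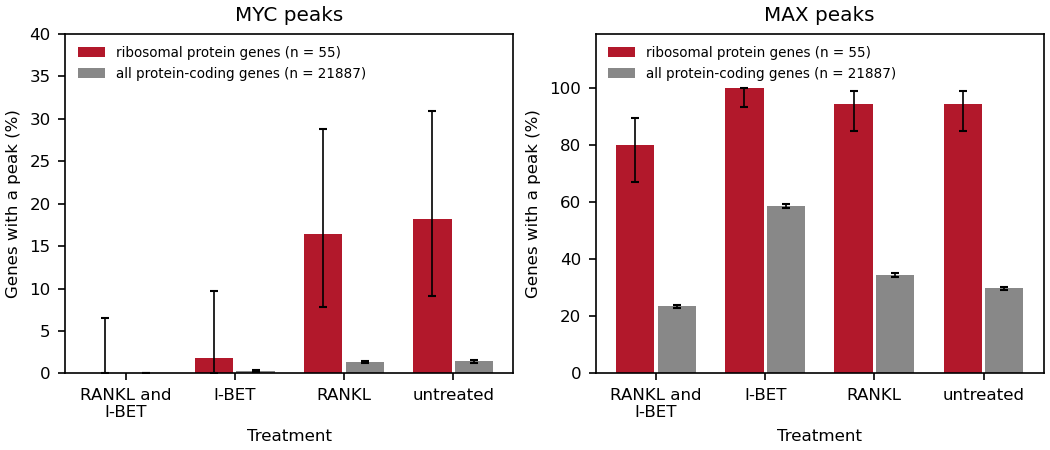
Share of genes with a listed peak (percent, y axis) by treatment (x axis) for MYC (left) and MAX (right), with the 55 ribosomal protein genes in red and all 21887 protein-coding genes in grey. Bars on the columns are exact 95% intervals over genes, not over libraries. MAX peaks lay at 80% to 100% of the members, and MYC peaks at 0% to 18.2%.

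Among the genes with a MYC peak, Rpl10a stood first by number of lists. Rpl10a, which encodes the protein of the L1 stalk beside the tRNA exit site, had a MYC peak of 78 bp with I-BET (chr17:28328727-28328804, rank 126 of 136), of 748 bp with RANKL (chr17:28328199-28328946, rank 57 of 299) and of 589 bp in untreated cells (chr17:28328209-28328797, rank 50 of 312). The peak with I-BET was the narrowest of the 3 and stood near the bottom of its list. Rpl10a has 2 listed starts. From the one at 28328471 the peak was centred 294 bp downstream with I-BET, 101 bp with RANKL and 32 bp in untreated cells. From the one at 28328565 the values were 200, 7 and -62 bp in the same order, the last being upstream. The CACGCG match of the Rpl10a promoter, printed above as CGCGTG, lay inside the MYC peaks of the RANKL and untreated lists but outside that of the I-BET list. When peaks under 100 bp were left out, no member kept a MYC peak with I-BET. Ranks follow the authors' score within a list, and ranks from lists of different lengths do not show a change.

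Rpl32, Rpl5 and Rpl12 had MYC peaks at the same place with RANKL and in untreated cells. Rpl32, a large-subunit protein gene, had the highest-ranked MYC peak of any member with RANKL (rank 17 of 299, 421 bp, chr6:115808398-115808818), against rank 107 of 312 in untreated cells (274 bp, chr6:115808539-115808812). Rpl5, whose protein carries 5S rRNA into the ribosome and binds Mdm2 when free, ranked 59 with RANKL (444 bp, chr5:107900500-107900943) and 188 in untreated cells (224 bp, chr5:107900580-107900803). Rpl12, a protein at the base of the stalk where translation factors dock, ranked 173 with RANKL (187 bp) and 162 in untreated cells (311 bp). The peaks of Rpl32 and Rpl5 were wider with RANKL and that of Rpl12 narrower. Both Rpl5 peaks were centred downstream of the start, at 193 bp with RANKL and 163 bp in untreated cells, outside the printed promoter.

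Rpl13a also appeared in both lists, but at different places. The protein of Rpl13a is known, besides its place in the large subunit, for silencing inflammatory messenger RNAs in human monocytes. With RANKL its MYC peak (rank 164) was centred 4213 bp downstream of the Rpl13a start, beyond the gene's other end. In untreated cells the peak (chr7:45128943-45129198, rank 172) was centred 325 bp upstream of the Rpl13a start, and its edge overlapped the CACGTG of the printed promoter, which is at 45128940 to 45128945. Counted by place, the RANKL and untreated lists therefore share 4 of these members' peaks, and the rule on gene extents gives 5.

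The remaining MYC peaks were in 1 list each. With RANKL they lay at Rps15a (rank 81), Rpl7a (rank 196), Rps19 (rank 242) and Rpl23 (rank 259). Rps19 is the small-subunit gene most often mutated in human Diamond-Blackfan anaemia, and free Rpl23 protein binds Mdm2. In untreated cells they lay at Rps7 (rank 136), Rplp2 (rank 170), Rpl13 (rank 231), Rpl38 (rank 266) and Rpl17 (rank 267). Rplp2 encodes an acidic stalk protein, and in mice Rpl38 is needed for translation of a set of Hox messenger RNAs. Rpl23, Rpl38 and Rpl17 stood low in their lists, at 86.6%, 85.3% and 85.6% from the top, whereas Rps15a stood at 27.1%.

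Between treatments, MYC peaks left the lists at members in shares near those of all genes. With RANKL, 4 of the 45 members without a peak in untreated cells had one (8.89%, against 0.677% of all genes without one), and 5 of the 10 members of the untreated list had none (50%, against 51.9% of all genes listed there). With I-BET, 9 of those 10 had none (90%, against 91.3%), Rpl10a was the exception, and 0 members had a peak that untreated cells lacked (background 0.171%). With RANKL and I-BET, 9 of the 9 members of the RANKL list had none (background 97.6%), and Rpl10a, the member listed with I-BET, had none (background 98.4%). The combination added 0 members to either list (background 0.00463% against RANKL and 0.0321% against I-BET). All 20 MYC peaks at members overlapped a MAX peak of the same treatment by at least 1 bp, 1 with I-BET, 9 with RANKL and 10 in untreated cells. Of all MYC peaks, 37.5% did so with I-BET, 93.6% with RANKL and 95.2% in untreated cells.

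**Figure D2:**
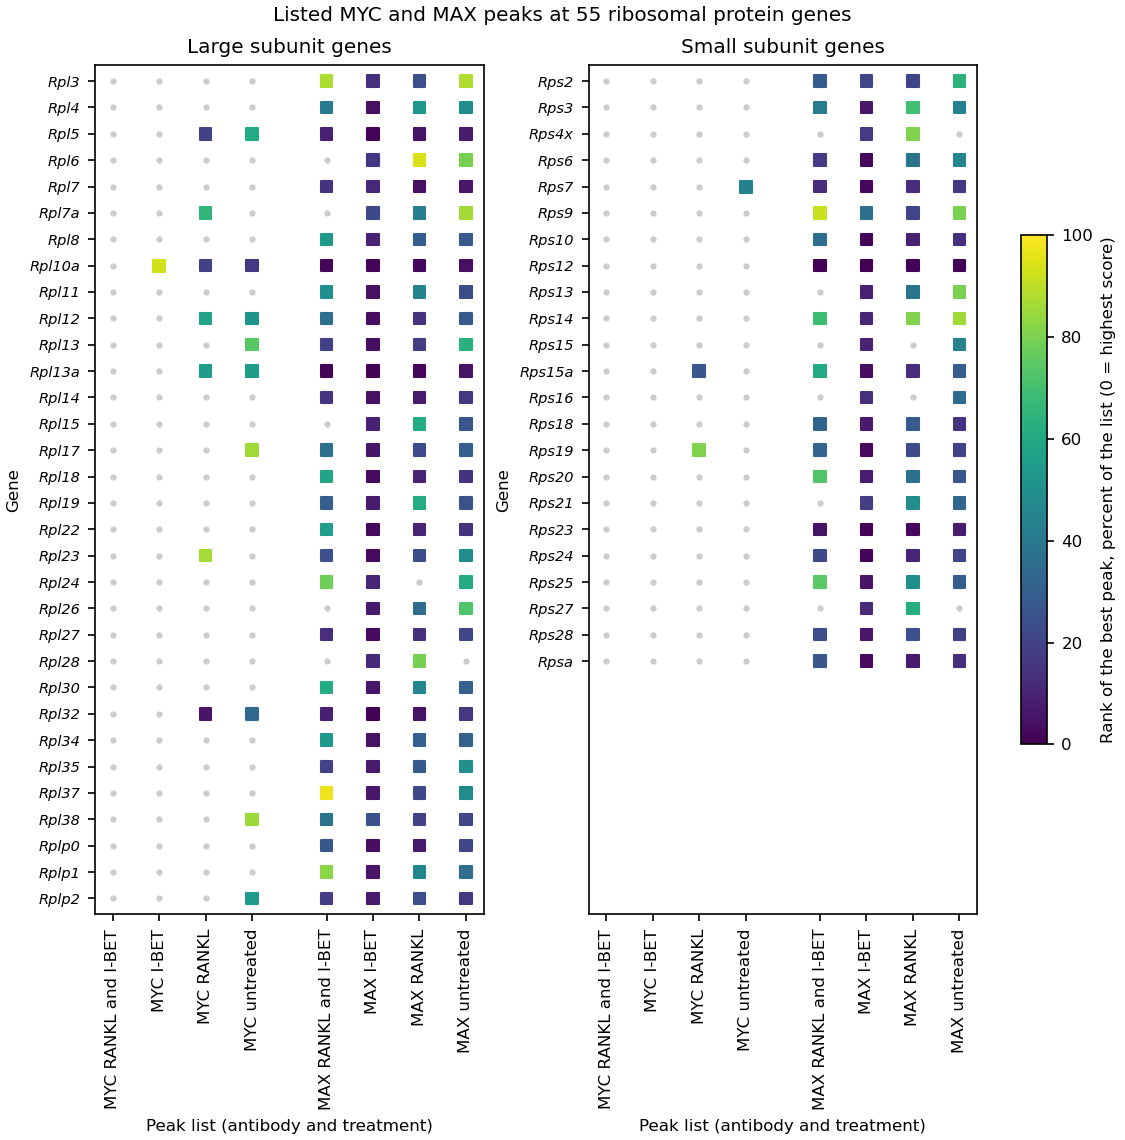
Listed peaks at the 55 genes (rows, large subunit left and small subunit right) in the 8 peak lists (columns). A coloured square is a listed peak, shaded by the rank of the gene's best peak in percent of its list (0 is the highest score), and a grey dot is no listed peak. MYC squares are sparse, with 1 in the I-BET column at Rpl10a, while MAX squares fill 43 of 55 rows completely.

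Rps12 had the highest-ranked MAX peak among the members in 3 of the 4 lists, with Rpl13a above it in the I-BET list (rank 85), and it had no MYC peak in any list. Rps12 encodes a protein at the beak of the small subunit. Its MAX peak ranked 1 of 6307 with RANKL and I-BET, 137 of 36785 with I-BET, 67 of 10889 with RANKL and 54 of 8839 in untreated cells. The peak of untreated cells (chr10:23786743-23787666, 924 bp) was centred 5 bp downstream of a start site and that with RANKL and I-BET (chr10:23786743-23787626, 884 bp) 25 bp downstream. The CATGTG match of the Rps12 promoter, printed above as CACATG, lay inside the MAX peak in all 4 lists. In untreated cells 42 of the 52 members with a MAX peak had no listed MYC peak (80.8%), against 95.4% of all genes with a MAX peak. These shares also depend on the differing threshold tags of the MYC and MAX lists.

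The 10 members with the highest-ranked MAX peak in untreated cells were Rps12 (54), Rpl10a (346), Rpl13a (447), Rpl7 (543), Rps23 (626), Rpl5 (653), Rpsa (1167), Rps10 (1225), Rpl22 (1287) and Rpl18 (1297). Their proteins are spread over both subunits: Rps23 lies at the decoding centre, Rps10 is modified by ubiquitin at collided ribosomes, Rpsa is also known as the laminin receptor, and Rpl22 has a paralog, Rpl22l1. Rpl10a, Rpl13a and Rpl5 of these had a MYC peak in untreated cells. At the low end stood Rpl3 (7781), Rpl7a (7614) and Rps14 (7562). The best Rpl13a peak lay beyond the gene's other end (centre 4225 bp downstream of the start), and the peak at its own promoter ranked 460. Rps18 was another case: its only untreated peak lay 4160 bp from its own start and nearer to that of another gene. The same held for its only peak with RANKL and I-BET (4190 bp). By the rule on gene extents Rps18 still counts as having a MAX peak in all 4 lists.

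Within each MAX list, the median rank of the members' best peaks was nearer the top than that of all genes with a peak. The median of the members' best peaks stood at 32.1% of the list from the top with RANKL and I-BET, at 5.92% with I-BET, at 23.4% with RANKL and at 27.8% in untreated cells. For all genes with a peak it stood at 44.5%, 19.2%, 40.9% and 43.1% in the same order. The upper 50% of the list held 30 of 44 members with RANKL and I-BET, 55 of 55 with I-BET, 43 of 52 with RANKL and 42 of 52 in untreated cells, or 68.2%, 100%, 82.7% and 80.8%. The shares of all genes with a peak were 55.7%, 84.8%, 59.4% and 57.1%. Members with a MYC peak had a better median MAX rank than those without, at 1338 (n = 9) and 3069 (n = 43) with RANKL, and 1411.5 (n = 10) and 2637 (n = 42) in untreated cells. The ranges overlapped almost fully, from 346 to 5618 with a MYC peak and from 54 to 7781 without one in untreated cells.

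**Figure D3:**
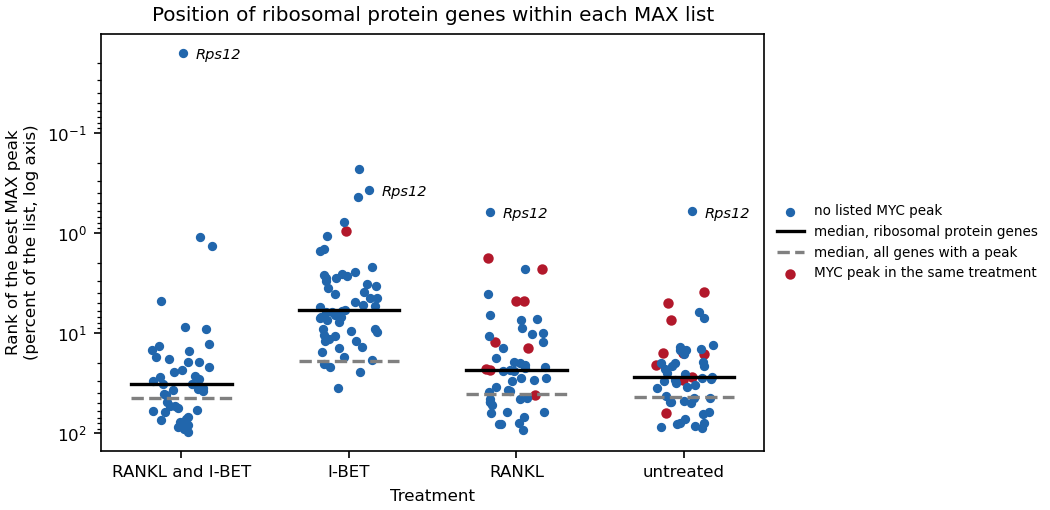
Rank of each member's best MAX peak in percent of the list (y axis, log scale, best at the top) in the 4 treatments (x axis), with members that had a MYC peak in the same treatment in red. Solid lines are medians of the members and dashed lines medians of all genes with a peak, and in each list the members' median is nearer the top. Rps12 is the best-ranked member in 3 of the 4 lists.

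Few members entered or left the MAX lists when RANKL or I-BET was given alone. With RANKL, Rpl28, Rps4x and Rps27 had a MAX peak that untreated cells lacked, which were all 3 members not listed in untreated cells (background 10.8% of genes not listed there). Rpl24, Rps15 and Rps16 had none with RANKL, 3 of the 52 members listed in untreated cells (5.77%, background 9.81%). With I-BET the same Rpl28, Rps4x and Rps27 had a peak (background 41.3%), and 0 of 52 members were without one (background 0.199%). The peaks of Rpl28, Rps4x and Rps27 with RANKL stood low, at ranks 8632, 8796 and 6805 of 10889. Rps4x is the X-linked member, and in mice a splicing mutation of Rpl24 causes the Belly spot and tail phenotype.

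Adding I-BET to RANKL left 44 members with a MAX peak. Of the 52 members listed with RANKL, 9 had none with RANKL and I-BET (17.3%, against 36.0% of all genes): Rpl6, Rpl7a, Rpl15, Rpl26, Rpl28, Rps4x, Rps13, Rps21 and Rps27. Rpl24 had a peak with RANKL and I-BET and none with RANKL (background 2.13%). Against I-BET alone, 11 of 55 had none (20%, against 60.0% of all genes), the same 9 together with Rps15 and Rps16, and no member had a peak with both compounds that it lacked with I-BET (background 0%). By median rank, members also stood higher in the lists than all genes with a peak. The shares within a range of ranks were not tested. In the upper 50% of the RANKL list, 4 of 43 members had no peak with RANKL and I-BET (9.3%, against 16.2% of all genes there), and in the lower 50% it was 5 of 9 (55.6%, against 64.9%).

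These counts depend on the lengths of the lists. With the 6307 highest-scoring MAX peaks of each list, 44 members had a peak with RANKL and I-BET, 49 with I-BET, 44 with RANKL and 45 in untreated cells. The count with RANKL and I-BET then equalled that with RANKL, with 4 members of the RANKL list missing in place of 9 (9.09%, against 19.7% of all genes). The 9 members without a peak had a median rank of 6711 in the full RANKL list, against 2251 for those that kept one.

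The untreated MAX peaks of members mostly stayed in place. A peak overlapping the untreated one by at least 1 bp was listed for 44 of 52 members with RANKL and I-BET (68.5% of all genes), for 52 with I-BET (99.2%) and for 49 with RANKL (88.3%). For 43 of 52 members it was listed in all 3 treated lists, against 66% of all genes. When each peak had to cover at least 50% of the other, the counts were 39, 31 and 48, and 23 for all 3, against 64.2%, 51.4%, 83.2% and 31.5% of all genes.

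MAX peaks were wider with I-BET at all 52 members that could be matched to an untreated peak. At these members the peak was wider by a median of 1.74-fold (range 1.05 to 3.81), against 95.7% of all genes wider and a median of 2.02-fold. The smallest widening was at Rps3, where I-BET gave 775 bp against 740 bp untreated. At Rplp1 and Rps21 the I-BET peak covered or touched 2 untreated peaks, and set against the span of both the ratios were 1.57 and 1.52. With spans used for these, the largest ratio was 3.43, at Rps16, with 1215 bp against 354 bp. Rps3 takes part in DNA repair besides its place at the mRNA entry channel. With RANKL and I-BET, 12 of 44 members had a wider peak (27.3%, median 0.909-fold), against 32.4% of all genes and 0.887-fold. With RANKL it was 25 of 49 (51%, median 1.01-fold), against 69.4% and 1.13-fold. Members' peaks were wider than those of all genes to begin with, with medians of 636.5 bp and 475 bp in untreated cells. Widths were set by the authors' calling, and its thresholds are unknown here.

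MAX peaks of members were centred close to the start site, and by median just downstream of it. Start sites were in the promoter table for 46 of 55 members. From the nearest listed start of each, the nearest MAX peak was centred a median of 64 bp downstream with RANKL and I-BET, 108.5 bp with I-BET, 53 bp with RANKL and 59 bp in untreated cells. For all genes with a MAX peak and a listed start the medians were -10, 74, -3 and -17 bp, negative values being upstream. The centre lay within 500 bp of the start for 33 of 35, 46 of 46, 43 of 43 and 42 of 43 members, against 75.8%, 81.4%, 77.1% and 75.6% of all genes. It was downstream for 26, 33, 28 and 29 members, against 47.7%, 64.7%, 49.3% and 45.7% of all genes. Members are short genes, with a median extent of 3551 bp against 17169 bp over all protein-coding genes, so fewer positions far from the start can fall in the counting window. The MYC peaks were centred a median of 142.5 bp downstream with RANKL (n = 8) and 121.5 bp in untreated cells (n = 8).

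**Figure D4:**
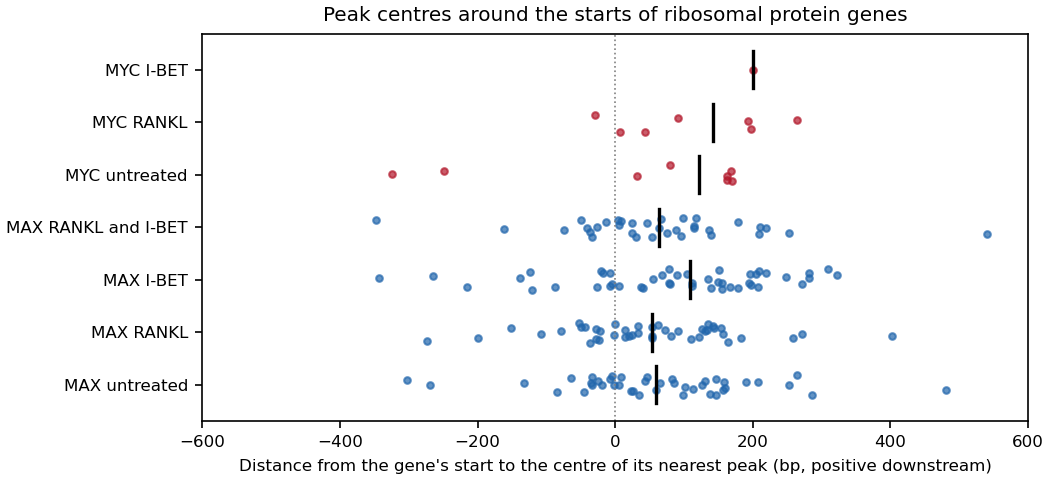
Distance in bp (x axis) from a member's start site to the centre of its nearest listed peak, positive downstream, by list (y axis). Each point is a member with a start in the promoter table, and vertical bars are medians, all to the right of the dotted line at the start. The MYC peak of Rpl13a with RANKL (4213 bp) and the MAX peaks of Rps18 with RANKL and I-BET (4190 bp) and in untreated cells (4160 bp) lie beyond the axis, and the MYC list of RANKL and I-BET has no point.

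Of the 55 members, 46 were found in the RefSeq promoter table, with 54 start sites. The palindromic E-box CACGTG occurred in 8 of 54 member promoters (14.8%), against 17.9% of 4473 promoters of protein-coding genes with an untreated MAX peak and 7.15% of all 32851 promoters. Searched on both strands, CATGTG occurred in 13% of member promoters (7.78% and 14.2% in the same comparison sets) and CACGCG in 20.4% (27.1% and 9.27%). The E2F-like GGCGGGAA occurred in 5.56% (5.63% and 2.19%), and TATAAA in 7.41% (5.21% and 13.6%). CACGTG and CACGCG were thus no more frequent in members than in MAX-bound promoters, while the members' share for CATGTG lay above those of MAX-bound and of all protein-coding promoters (11.5%) and below that of all promoters. The ETS motif CCGGAAG occurred in 19 of 54 (35.2%), against 24.1% and 8.86%.

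Pyrimidine features were more frequent in member promoters than in both comparison sets, which was not tested. The octamer CTCTTTCC, searched on the gene's strand alone, occurred in 6 of 54 member promoters (11.1%), against 1.48% of MAX-bound and 1.50% of all promoters. A listed start at a C followed by at least 5 pyrimidines in a row, the start base included, was found in 12 of 54 (22.2%), against 1.92% and 2.51%. The median pyrimidine run from the first base was 0 in member, MAX-bound and all promoters. This count rests on the exact base of each listed start, so it does not show how many members have a 5' TOP start. The median GC content was 59% in member promoters, 64% in MAX-bound promoters and 52.7% in all, and the median number of CG dinucleotides was 21, 25 and 7. A match is no evidence of binding, and several of the 54 windows overlap because they belong to the same gene.

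**Figure D5:**
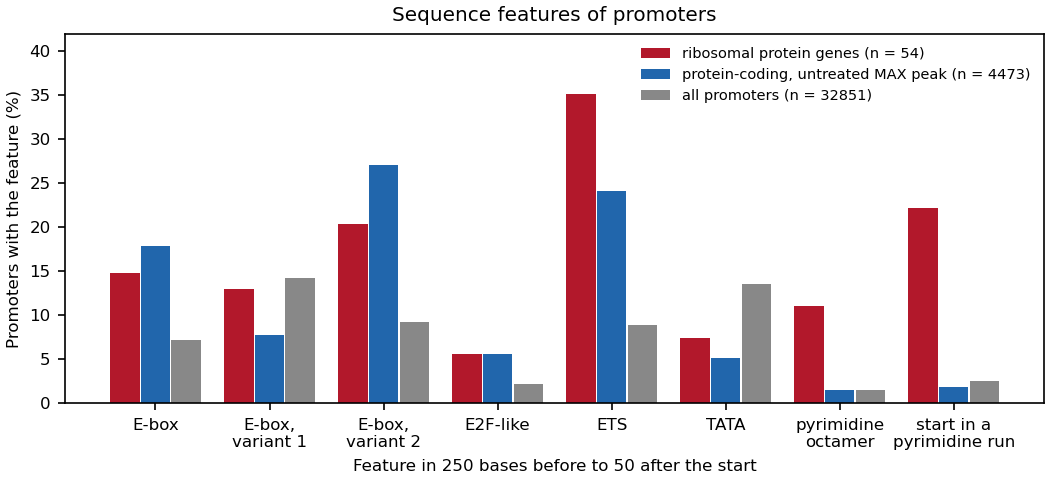
Share of promoters (percent, y axis) that hold each sequence feature (x axis) among the members' 54 promoters (red), 4473 promoters of protein-coding genes with an untreated MAX peak (blue) and all 32851 promoters (grey). The E-box is less frequent in members (14.8%) than in MAX-bound promoters (17.9%), and the pyrimidine features are more frequent (11.1% and 22.2% of members).

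The members' hexamers were also set beside their peaks. CACGTG lay in the promoters of Rpl13a, Rpl14, Rpl19, Rpl23, Rpl34 and Rps19, and all 6 sites were inside a MAX peak in each of the 4 lists. A single one of them, that of Rps19, lay inside a MYC peak (chr7:24884426-24884868, with RANKL). In untreated cells the median MAX rank was 1982.5 for the 6 members with CACGTG and 2423 for 37 without it, and with RANKL it was 2514 and 2383, so the order of the medians differed between lists. Any of the 3 hexamers was present in 18 of 46 members and absent from this window in 28. Of the members with a MYC peak and a start in the table, 4 of 8 with RANKL and 4 of 8 in untreated cells held one. The window ends 50 bp downstream of the start, while many peak centres lie further downstream.

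Neighbouring and embedded genes were counted at the same loci. A snoRNA gene lay within the extent of 21 of 55 members (38.2%), against 1.7% of protein-coding genes. MYC peaks were listed at 6 of these 21 hosts and 3 of the other 34 members with RANKL, and at 7 and 3 in untreated cells. A divergent start within 500 bp was present for 10 of 46 members (21.7%), against 13.9% of genes in the table. For these, such as Rpl12 with Lrsam1 and Rpl7a with Med22, a peak between the starts cannot be assigned to either gene.

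Related gene groups were counted by the same rule. Among 32 other cytosolic ribosomal protein genes, MYC peaks were listed at 0 with RANKL and I-BET, 1 with I-BET, 3 with RANKL and 2 in untreated cells. Among 78 mitochondrial ribosomal protein genes, which are made from nuclear genes but serve the organelle's own ribosome, it was 1 (Mrpl23), 0, 2 (Mrpl23 and Mrpl43) and 1 (Mrpl1), with MAX peaks at 43, 78, 57 and 52. Among 20 other genes with 5' TOP messenger RNAs it was 0, 0, 2 (Npm1 and Rack1) and 3 (Rack1, Npm1 and Pabpc1), with MAX peaks at 13, 20, 17 and 17.

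Ribosome biogenesis factors, which build the particle without being part of it, had the most MYC peaks of these groups. Npm1 is in this list as well. Of 60, MYC peaks were listed at 2 with RANKL and I-BET (Ncl and Nop58), 1 with I-BET (Ncl), 14 with RANKL and 11 in untreated cells. Ncl (nucleolin) ranked 3 of 312 and Rrp1b 10 in untreated cells, and Nop58 ranked 9 of 299 with RANKL, all above the best-ranked member of the same list, which was Rpl10a at 50 in untreated cells and Rpl32 at 17 with RANKL. As shares, 23.3% of biogenesis factors and 16.4% of the members had a MYC peak with RANKL, and 18.3% and 18.2% in untreated cells, with intervals that overlap (13.4 to 36 and 7.77 to 28.8 with RANKL). MAX peaks lay at 53, 60, 57 and 56 of the 60.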

How the data were processed

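MYC and MAX ChIP-seq in RAW264.7 cells was deposited as 8 peak lists, 1 per antibody and treatment, and 4 input libraries were not used here. Per the labels' protocols, cells were fixed in 1% formaldehyde for 15 min and read as single-end 50 bp. Bowtie2 2.3.4.1, MACS2 2.1.1.20160309 and mm10 are named in the submitters' processing notes. How thresholds, input and duplicate reads were handled is not given in the sources used here. Each deposited row has a score, the authors' mean over peaks joined from 3 call sets of unstated nature, which served only to rank peaks within a list, with ties in order of chromosome and start. MYC and MAX lists carry different threshold tags, so numbers were compared within an antibody. Starts were raised by 1.

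A peak counted for a gene if it shared at least 1 bp with its RefSeq extent (GRCm38.p6) plus 1 kb. Strand and starts came from the RefSeq promoter table, and exons were not used here. Intervals are exact Clopper-Pearson 95%. A share at a count of 0 was limited with 3 counts. Alternatives are given at the end, and peaks within 1 kb of a start and widths over joined spans were added after seeing the data. The members and lists were chosen with earlier results of these data known. Named are all members with a MYC peak, the 10 best MAX ranks, members missing from a MAX list and up to 4 MYC-bound genes per other list (those among other cytosolic ribosomal protein genes are not reported here), with Rps3, Rpl3, Rps14, Rps18 and Rplp1 added after their values were seen. Gene counting was tested on simulated data and against bedtools 2.31.1. Analyses used Python 3.11.15 (pandas 2.3.3, scipy 1.17.1, numpy 2.4.6) and plots matplotlib 3.10.9.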

Additional observations from a re-analysis of the deposited data

Results flagged for a closer look

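The change in the number of members with a MAX peak under I-BET had opposite signs in the presence and absence of RANKL. With RANKL and I-BET 44 members had a peak against 52 with RANKL, a change of -8, and with I-BET 55 had one against 52 in untreated cells, a change of 3, which gives a difference of -11. Over all protein-coding genes the changes were -2409 and 6334. The difference was not tested, since each treatment has 1 list. With the 6307 highest-scoring peaks of each list the members' changes were 0 with RANKL and 4 without it, and those of all genes 95 and 817, so the signs were then not opposite.

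Rpl28, Rps4x and Rps27 had a MAX peak with I-BET alone and with RANKL alone, and none with both compounds or in untreated cells. These 3 are 5.45% of the members, and 5.71% of all protein-coding genes (1250) had this pattern, which was not tested either.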

How the results depend on the processing

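No paired analysis was possible because each antibody and treatment has 1 list. Of the recomputed values 169 stayed within 1.5 times the main count or within its interval and 46 moved. Asking for at least 50% of a peak inside the window moved none. Asking for a peak within 1 kb of a start moved none either, but it covered only the 46 members with a listed start. Its counts were set against main counts over all 55. Without a flank, MAX counts were 5 members with RANKL and not untreated, 5 with I-BET and not untreated, and 2 with RANKL and I-BET and not RANKL. With 2.5 kb the last was 0. At gene ends alone, 7 had a peak with I-BET and not untreated.

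In the upper 50% of each list, members with a MYC peak numbered 0 with I-BET, 4 with RANKL and 3 untreated. There, 2 were in RANKL and not untreated, 1 the reverse, 3 untreated and not I-BET, 4 RANKL and not the combination, and 0 I-BET and not the combination. For MAX, 7 were in RANKL and not untreated, 6 the reverse, 13 in I-BET and not untreated, 3 in the combination and not RANKL, 16 the reverse, and 25 in I-BET and not the combination. Leaving out peaks under 100 bp gave 0 MYC members with I-BET and so 0 missing with the combination.

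With the 11 top MYC peaks of each list, every MYC count of members was 0. With the top 136, it was 4 with RANKL and 3 untreated, with 2 in RANKL and not untreated, 1 the reverse and 2 untreated and not I-BET. With the top 6307 MAX peaks, 5 were in RANKL and not untreated, 6 the reverse, 7 in I-BET and not untreated, 3 the reverse, 4 in the combination and not RANKL, 4 the reverse, and 3 in the combination and not I-BET.

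With reciprocal overlap of 50%, MYC peaks on MAX peaks numbered 0 with I-BET, 5 with RANKL and 4 untreated, and untreated MAX peaks listed again numbered 31 with I-BET and 23 in all 3 treated lists. The lists of differing length, 1 library per group and unknown depth limit every comparison of treatments.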
